A study of Homo sapiens with 6 samples.

Results

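Amino acids cross the plasma membrane only through carrier proteins, and a growing tumour cell depends on several families of them. The transcripts of 10 such carriers are described here, SLC7A5, SLC3A2, SLC7A11, SLC7A1, SLC1A5, SLC1A4, SLC38A1, SLC38A2, SLC6A9 and SLC43A1, out of 58825 gene identifiers in the deposited table. They were chosen by name as plasma membrane amino acid transporters, with earlier results of these data known. Each matched 1 identifier, and all 10 passed the filter on low counts. RNA was sequenced from FaDu, an established line of hypopharyngeal squamous carcinoma, in 3 libraries labelled FaDu and 3 libraries labelled shNSUN2, in which a short hairpin targets NSUN2, a methyltransferase that places 5-methylcytosine on RNA. A control with a non-targeting hairpin was not analysed here, so loss of NSUN2, the hairpin and its delivery cannot be told apart. The labels do not say whether replicates were separate cultures, nor whether the hairpin line is a clone, so the p-values reflect the spread among these 6 libraries alone, and that spread may be technical.

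As background, the carriers fall into a few systems. SLC7A5 and SLC7A11 are light chains that reach the surface bound by a disulfide bridge to the heavy chain SLC3A2. With SLC3A2, SLC7A5 exchanges large neutral amino acids such as leucine, and SLC7A11 exchanges cystine for glutamate. SLC7A1 carries arginine and lysine, SLC1A5 and SLC1A4 exchange small neutral amino acids (glutamine in the case of SLC1A5), SLC38A1 and SLC38A2 take up glutamine and alanine with sodium, SLC6A9 takes up glycine, and SLC43A1 facilitates leucine transport without a heavy chain. Several of these genes are known targets of ATF4, the transcription factor of the amino acid response, which binds C/EBP-ATF composite elements. SLC7A5, SLC1A5 and SLC43A1 are also described as targets of MYC, which binds E-boxes.

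ATF4, MYC and NRF2 are known regulators of several of these genes, so promoter sequences were searched for letters of their motifs. Part of the matches are shown before the values. RefSeq promoter windows (GRCh38.p14, 250 bases before to 50 bases after a start site) were at hand for 9 of the 10 genes, with 16 windows in all. SLC7A11 had no window. Both strands were searched for TGATGNAA, the core of the amino acid response element, for the palindromic E-box CACGTG and for TGACNNNGC, the core of the antioxidant response element that NRF2 binds. The first was found in 5 of the 16 windows, belonging to SLC1A4, SLC3A2, SLC38A1, SLC7A1 and SLC1A5, and in 3.62% of all 35116 windows. The E-box was found in 3 of the 16 windows, those of SLC7A5, SLC43A1 and SLC1A5, and in 7.26% of all windows. The third motif was found in 4 of the 16 windows, belonging to SLC3A2, SLC7A1, SLC7A5 and SLC1A5, and in 13.3% of all windows. No matches overlapped. The matches are letters in a window, not shown sites of binding. The E-box of SLC1A5 and the matches of the third motif are not printed. The other sites are printed 5′ to 3′ along the gene, 30 bases each, with the match in capitals. In order they lie at chr2:64989381-64989410 (plus strand), chr11:62881719-62881748 (plus), chr12:46266502-46266531 (minus), chr13:29595663-29595692 (minus) and chr19:46784893-46784922 (minus) for the first motif, and at chr16:87869620-87869649 (minus) and chr11:57515797-57515826 (minus) for E-boxes.
SLC1A4 response element: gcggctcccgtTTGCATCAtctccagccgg
SLC3A2 response element: gtaatgtgcaggactccTTACATCAgctcc
SLC38A1 response element: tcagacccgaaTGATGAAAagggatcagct
SLC7A1 response element: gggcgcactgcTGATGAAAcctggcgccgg
SLC1A5 response element: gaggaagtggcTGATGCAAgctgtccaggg
SLC7A5 E-box: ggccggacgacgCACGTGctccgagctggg
SLC43A1 E-box: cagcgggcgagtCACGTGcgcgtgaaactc
The matches of SLC1A4 and SLC3A2 read as TGATGCAA and TGATGTAA on the opposite strand. In SLC1A4 the match spans the start site, from base -7 to base 1, and in SLC3A2 it lies at bases 38 to 45 after the start. The SLC1A5 match precedes an internal start. The matches of SLC1A5, SLC3A2 and SLC7A1 lie in annotated exons of their genes.

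SLC7A5 was the most abundant of the carriers and no base of its upstream window lies in an annotated exon of the gene, so that window is given whole (chr16:87869508-87869757, minus strand). Its GC content is 79.6%, and the E-box in capitals lies at bases -130 to -125 from the start. A match of the antioxidant motif, TGACGCAGC, spans the start from base -2 to base 7. It is not marked, as the printed sequence ends within it.
SLC7A5 upstream: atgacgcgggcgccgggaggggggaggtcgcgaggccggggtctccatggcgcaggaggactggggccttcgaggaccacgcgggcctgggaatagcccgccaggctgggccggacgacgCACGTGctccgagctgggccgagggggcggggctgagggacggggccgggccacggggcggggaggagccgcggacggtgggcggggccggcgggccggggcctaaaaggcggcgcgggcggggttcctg
The SLC7A5 window of 250 upstream and 50 downstream bases held no TGATGNAA, which says only that these letters are not in it.

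Totals were 53612358 to 72788971 estimated counts per library, and levels are given as CPM, counts divided by the library total after TMM scaling. NSUN2 had 169, 173 and 156 CPM in FaDu and 50.4, 34.7 and 39.6 CPM in shNSUN2. Replicate 3 of shNSUN2 stood apart by the GC content of its genes. Across 14360 genes, which are not independent replicates, the log2 difference of that library from replicates 1 and 2 had a Spearman rho of 0.549 and 0.468 with GC content. Where leaving that library out changed the call of a carrier, the value is given with the gene. The 14 squamous markers, which include the basal keratins KRT5, KRT14 and KRT17, summed to 5792 to 5844 CPM in FaDu and 3308 to 3703 CPM in shNSUN2. They did not all fall. Of the 13 tested, 9 were called lower, 3 were not called, CDH1 among them, and EPCAM was called higher. EPCAM went from a mean of 129 CPM in FaDu to 192 CPM in shNSUN2. Over all genes tested, 9.97% were called lower and 8.54% higher. The 9 leukocyte markers summed to 8.49 to 11.1 CPM in FaDu and 10.3 to 12.2 CPM in shNSUN2, most of it from CD14, and 4 of them, among which PTPRC, CD3D and MS4A1, were at 0 in every library. The 10 prostate markers summed to 30.5 to 33.2 CPM in FaDu, where 4 were at 0, and to 49.4 to 65.1 CPM in shNSUN2, where none was at 0. The 6 plasma cell markers summed to at most 0.267 CPM in FaDu and to 2.10 to 6.15 CPM in shNSUN2. The 7 endothelial markers summed to 4.64 to 6.45 CPM in FaDu and to 32.8 to 55.9 CPM in shNSUN2, where CDH5 alone had 28.0, 40.0 and 50.7 CPM and was the only one of them called. The 8 smooth muscle markers summed to 63.7 to 68.2 CPM and to 45.8 to 62.1 CPM, with 3 called higher (ACTG2, DES and TAGLN) and 2 called lower. The 8 fibroblast markers summed to 9.04 to 9.58 CPM and to 6.44 to 11.6 CPM, with COL1A2 called higher and FAP at 0 in every library. The part of these transcripts in the results was not tested.

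Of the 10 carriers, 4 fell in shNSUN2 (SLC7A5, SLC3A2, SLC1A4 and SLC6A9) and none rose, by edgeR's quasi-likelihood test at an adjusted p under 0.05 over 19081 genes. Over all genes tested, 9.97% were called lower and 8.54% higher. The other 6 carriers did not pass. The median log2 fold change of the 10 was -0.95, against -0.007 over all genes tested. In 6 carriers the highest shNSUN2 library was below the lowest FaDu library, and 22.1% of all genes tested were separated in that direction. None of the 10 was separated in the other direction, as 20.3% of all genes tested were. As the 10 were chosen with earlier results of these data known, these contrasts describe the list and do not test it. SLC7A5 and SLC3A2 passed in every one of the 16 alternative analyses. The calls of SLC1A4 and SLC6A9 were lost without any 1 of the FaDu libraries or without shNSUN2 replicate 1. In those fits 1354 to 2069 genes were called over the whole table, against 3532 in the reported fit. Their log2 fold changes, and the calls that other carriers gained in some alternatives, are given with each gene.

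**Figure D1:**
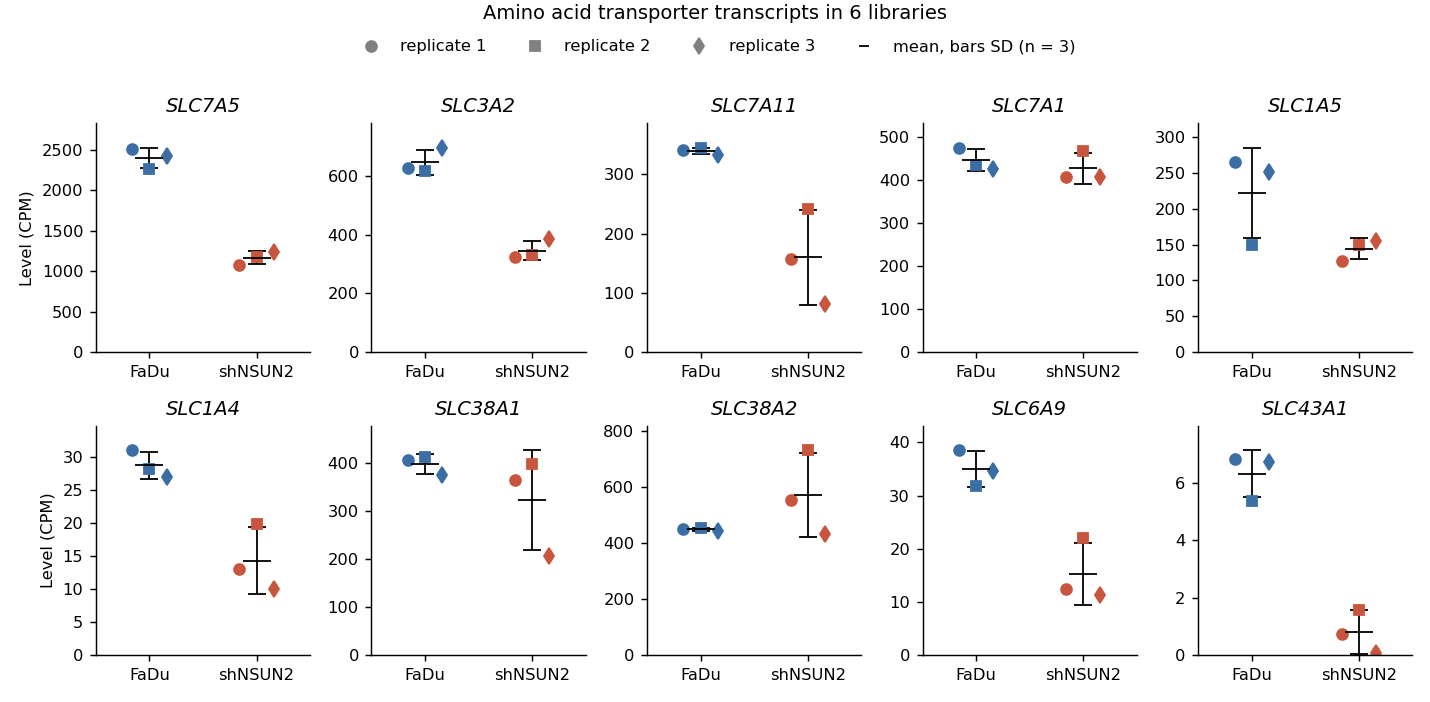
Level of each carrier transcript in CPM (vertical axis, from 0) in the 3 FaDu and 3 shNSUN2 libraries, with symbols for replicates and the mean and SD in black. SLC7A5 and SLC3A2 form tight, separate groups, while SLC7A11, SLC38A1 and SLC38A2 spread widely among the shNSUN2 libraries only.

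The heavy chain and its main light chain fell together. SLC7A5 lies on chromosome 16 from 87830023 to 87869488 (GRCh38, GENCODE 29, minus strand) and is protein-coding, as are all 10 genes. It had 2511, 2261 and 2425 CPM in FaDu and 1080, 1181 and 1244 CPM in shNSUN2. Every shNSUN2 library was below every FaDu library by a wide margin, and the shNSUN2 mean was 48.7% of that in FaDu. This gave a log2 fold change of -1.04 (SE 0.105, edgeR adjusted p = 0.00111), with a range of -1.12 to -0.98 over the alternatives. Short pseudogenes of SLC7A5 could take some of its reads. SLC7A5P1 and SLC7A5P2 together amounted to 0.0711% of the SLC7A5 level in FaDu and 0.13% in shNSUN2.

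SLC3A2, the heavy chain that also serves as the CD98 surface antigen, lies on chromosome 11 from 62856102 to 62888875 on the plus strand. It had 626.7, 616 and 695 CPM in FaDu and 323, 330.4 and 384 CPM in shNSUN2, again with a clear gap between the groups. SLC3A2 fell by 0.90 on the log2 scale (SE 0.116, edgeR adjusted p = 0.00264), and the change ranged from -0.98 to -0.85 over the alternatives. The SLC7A5 and SLC3A2 profiles over the 6 libraries had a Pearson r of 0.988 in log2 CPM, a value that the group difference alone can set.

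SLC7A11, the cystine carrier and the other major partner of SLC3A2, lies on chromosome 4 from 138164097 to 138242349 on the minus strand. It had 341, 344 and 333 CPM in FaDu and 157, 242 and 81.8 CPM in shNSUN2. The FaDu libraries hardly differed, whereas the shNSUN2 libraries spread over 3 well separated levels, all below FaDu. Its log2 fold change of -1.08 (SE 0.347, 95% interval -1.90 to -0.26) was not called, at an edgeR adjusted p of 0.0724. It was called without shNSUN2 replicate 2 (-1.51, edgeR adjusted p = 0.0151) and without shNSUN2 replicate 3 (-0.76, edgeR adjusted p = 0.0326). The adjusted p ranged from 0.00308 to 0.187 over the 16 alternatives. Its longest transcript has the lowest GC content of the 10, 35.4%, and its lowest level was in the library that stood apart by GC content. A correction for GC content and exonic length gave -0.97 on the log2 scale (SE 0.24, edgeR adjusted p = 0.0269), which was called. The antisense gene SLC7A11-AS1 shares 865 exonic bases with it and had at most 1.03 CPM in any library.

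SLC3A2 can pair with 6 light chains, and their levels were compared per kilobase of annotated exon. In FaDu, SLC7A5 made up 92.1% ± 0.521 (SD, n = 3) of the light chain sum and SLC7A11 6.42% ± 0.375. In shNSUN2 the shares were 91.0% ± 2.97 and 6.14% ± 2.95. The SLC7A5 share was 90.1%, 88.6% and 94.3% in the shNSUN2 libraries and 92.6%, 91.6% and 92.2% in FaDu, so the groups overlapped (exact two-sided permutation p = 0.6, smallest possible 0.1). SLC7A10 was at 0 in every library. The ratio of summed light chains to SLC3A2 was 4.72, 4.37 and 4.13 in FaDu and 4.05, 4.40 and 3.75 in shNSUN2 (exact two-sided permutation p = 0.3). With 3 libraries a group, a p above the threshold does not show that the 2 ratios were equal.

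The 2 minor light chains that passed the test went in opposite directions. SLC7A6, a light chain that exchanges arginine for neutral amino acids, rose from 26.1 ± 3.80 to 47.7 ± 8.09 CPM (SD, n = 3), a log2 fold change of 0.87 (SE 0.172, edgeR adjusted p = 0.0135). Its share of the light chain sum went from 0.629% ± 0.101 to 2.34% ± 0.536. SLC7A8, a neutral amino acid exchanger related to SLC7A5, fell from 25.3 ± 2.51 to 7.58 ± 1.49 CPM, a log2 fold change of -1.74 (SE 0.184, edgeR adjusted p = 0.00128). SLC7A7, at 1.13 ± 0.0847 and 0.484 ± 0.268 CPM, was not called.

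SLC7A1, the main carrier of arginine and lysine, did not pass. It lies on chromosome 13 from 29509410 to 29595688 on the minus strand. Its levels were 475, 436 and 427 CPM in FaDu and 407, 469 and 407 CPM in shNSUN2, and the groups overlapped. The log2 fold change was -0.06 (95% interval -0.31 to 0.19, edgeR adjusted p = 0.741), an interval that excludes a decrease of the size seen for SLC7A5. In none of the 16 alternatives was it called.

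The exchangers SLC1A5 and SLC1A4 had different levels and different certainty. SLC1A5, a glutamine exchanger on chromosome 19 from 46774883 to 46788594 (minus strand), had 266, 149 and 250.4 CPM in FaDu and 127, 149 and 155 CPM in shNSUN2. FaDu replicate 2 lay within the shNSUN2 range, and the other FaDu libraries lay far above it. With a log2 fold change of -0.62 (SE 0.214, edgeR adjusted p = 0.0807), SLC1A5 was not called. Without FaDu replicate 2 it was -0.84 (SE 0.15, edgeR adjusted p = 0.023). It was also called with the GC and length correction (-0.72, edgeR adjusted p = 0.0372) and with DESeq2 (adjusted p = 0.0391). An antisense gene, ENSG00000275719, shares 780 exonic bases with SLC1A5, or 23.4% of its exonic length, and had at most 1.90 CPM in any library.

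SLC1A4, an exchanger of alanine, serine and cysteine on chromosome 2 from 64988477 to 65023865 (plus strand), fell. It had 31.1, 28.2 and 27.1 CPM in FaDu and 13.0, 19.9 and 10.01 CPM in shNSUN2. All shNSUN2 libraries were lower, with replicate 2 nearest to FaDu. Its decrease came to -1.01 in log2 terms (SE 0.243, edgeR adjusted p = 0.0259). The call was lost without FaDu replicate 1, 2 or 3 (edgeR adjusted p = 0.0849, 0.0791 and 0.076) and without shNSUN2 replicate 1 (0.0875), with log2 fold changes of -1.05 to -0.94.

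SLC38A1 and SLC38A2, sodium-coupled carriers of glutamine and alanine, are neighbours 88.2 kb apart on chromosome 12, and neither passed. SLC38A1 (46183063 to 46270017, minus strand) had 405, 412 and 373 CPM in FaDu and 365, 398 and 205 CPM in shNSUN2. Only shNSUN2 replicate 3 was far below the rest. Its log2 fold change was -0.30 (95% interval -0.82 to 0.23, edgeR adjusted p = 0.402), and -0.05 without that library. SLC38A2 (46358189 to 46372867, minus strand) had 450, 455 and 445 CPM in FaDu and 554, 732 and 433 CPM in shNSUN2. Of its shNSUN2 libraries, 2 were above FaDu and replicate 3 just below.

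SLC38A2 was the only carrier of the 10 with a positive log2 fold change, 0.35 (SE 0.181, 95% interval -0.07 to 0.76, edgeR adjusted p = 0.218). It passed without shNSUN2 replicate 3 (0.52, SE 0.117, edgeR adjusted p = 0.0237) and with the GC and length correction (0.44, SE 0.126, edgeR adjusted p = 0.04). Its GC content is 38.1%. The ratio of SLC38A2 to SLC38A1 per kilobase was 1.69, 1.68 and 1.81 in FaDu and 2.30, 2.79 and 3.20 in shNSUN2. These did not overlap (exact two-sided permutation p = 0.1, the smallest possible), and the ratio was chosen after the values were seen.

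SLC6A9, the glycine transporter GLYT1, lies on chromosome 1 from 43991500 to 44031467 on the minus strand and fell. It had 38.5, 31.8 and 34.6 CPM in FaDu and 12.5, 22.0 and 11.3 CPM in shNSUN2, without overlap. Its decrease came to -1.20 in log2 terms (SE 0.256, edgeR adjusted p = 0.0174). SLC6A9 was no longer called without FaDu replicate 1, 2 or 3 (edgeR adjusted p = 0.062, 0.051 and 0.0611) or shNSUN2 replicate 1 (0.0644), at log2 fold changes of -1.26 to -1.07. CCDC24 on the opposite strand shares 404 exonic bases with SLC6A9 and had 8.03 ± 0.366 CPM in FaDu and 4.98 ± 1.23 CPM in shNSUN2. Without strand information, reads of the shared part cannot be assigned.

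SLC43A1, a heavy-chain independent carrier of leucine and other branched amino acids, lies on chromosome 11 from 57484534 to 57515786 on the minus strand. It was the scarcest of the 10, at 6.83, 5.38 and 6.75 CPM in FaDu and 0.724, 1.58 and 0.0592 CPM in shNSUN2. These shNSUN2 levels rest on deposited counts of 49, 94 and 4. Counts of 4 are over-represented in this table, so 1 fragment may be worth 4 units and the last count may be a single fragment. With counts divided by 4 the gene was called (-3.03, edgeR adjusted p = 0.0186), as it was with DESeq2 (adjusted p = 0.0279). The log2 fold change of -3.01 (SE 0.858, 95% interval -5.06 to -0.96) was the largest of the family in size but missed the threshold (edgeR adjusted p = 0.0549). Without shNSUN2 replicate 3 it was -2.46 (SE 0.362, edgeR adjusted p = 0.00617), and without shNSUN2 replicate 2 -4.01 (edgeR adjusted p = 0.032). SLC43A1 is known for its expression in prostate, and here it was lower in the libraries with more prostate marker transcripts, whose part in the result was not tested.

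**Figure D2:**
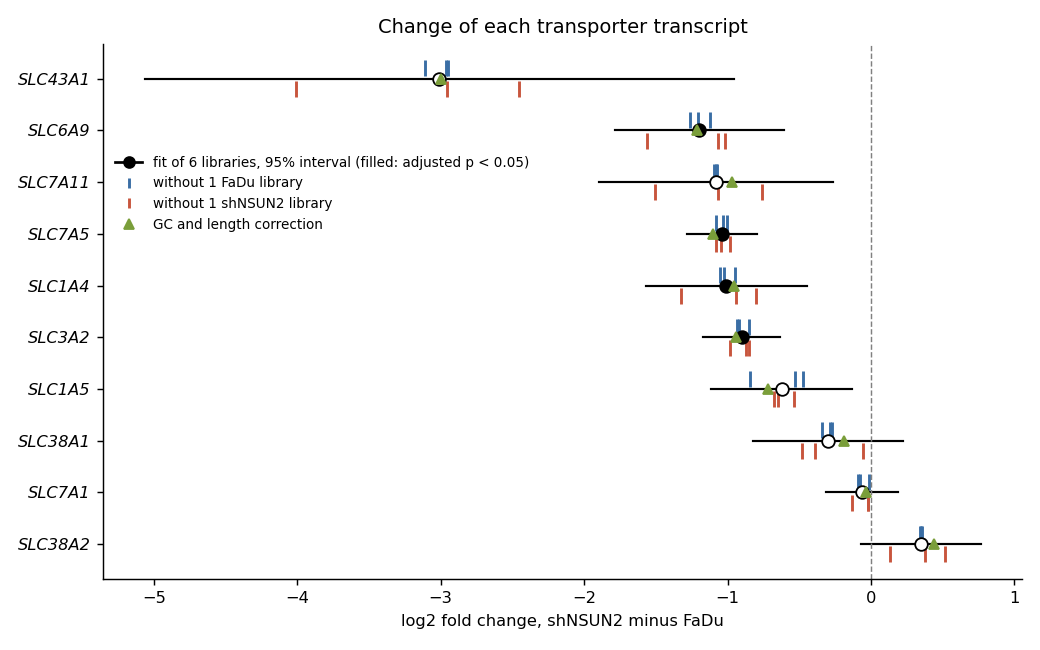
Log2 fold change of each carrier, shNSUN2 minus FaDu (horizontal axis), from the fit of all 6 libraries with its 95% interval, filled where the adjusted p was under 0.05, with the fits that leave out 1 library and the GC and length correction. SLC7A5 and SLC3A2 stay between -1.12 and -0.85 in all of these fits, whereas SLC7A11 and SLC43A1 shift with the shNSUN2 library that is left out.

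Scaled by exonic length, the order of levels in FaDu was SLC7A5 (506 ± 26.7 CPM per kilobase, SD, n = 3), SLC3A2 (125 ± 8.31), SLC38A2 (68.1 ± 0.766), SLC1A5 (66.6 ± 19.0), SLC7A1 (58.0 ± 3.35), SLC38A1 (39.6 ± 2.04), SLC7A11 (35.2 ± 0.588), SLC6A9 (6.78 ± 0.654), SLC1A4 (4.15 ± 0.296) and SLC43A1 (1.79 ± 0.232). Neighbours in that order overlapped only between SLC38A2 and SLC1A5 and between SLC1A5 and SLC7A1. In shNSUN2, SLC7A5 was still first at 246 ± 17.4 CPM per kilobase, but SLC38A2 (86.8 ± 22.8) came before SLC3A2 (66.8 ± 6.47), with overlapping libraries. SLC7A1 followed at 55.6 ± 4.62 and SLC1A5 at 43.2 ± 4.41.

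The summed level of the 10 carriers was 949.5, 854 and 928 CPM per kilobase in FaDu and 522, 602 and 534 in shNSUN2. The groups did not overlap (exact two-sided permutation p = 0.1, the smallest possible). Without SLC7A5 the sums were 405 ± 23.5 and 306 ± 41.8 CPM per kilobase (SD, n = 3), also without overlap (exact permutation p = 0.1). SLC7A5 alone made up 55.5% ± 0.387 of the sum in FaDu and 44.7% ± 3.98 in shNSUN2 (exact permutation p = 0.1). Of the rest, SLC3A2 went from 125 to 66.8 CPM per kilobase. The sum without SLC7A5 and the share of SLC7A5 were not among the planned results. The carriers were chosen with earlier results of these data known, so these sums describe the list and do not test it. In bulk RNA, fewer cells expressing a gene and less RNA per cell cannot be told apart.

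**Figure D3:**
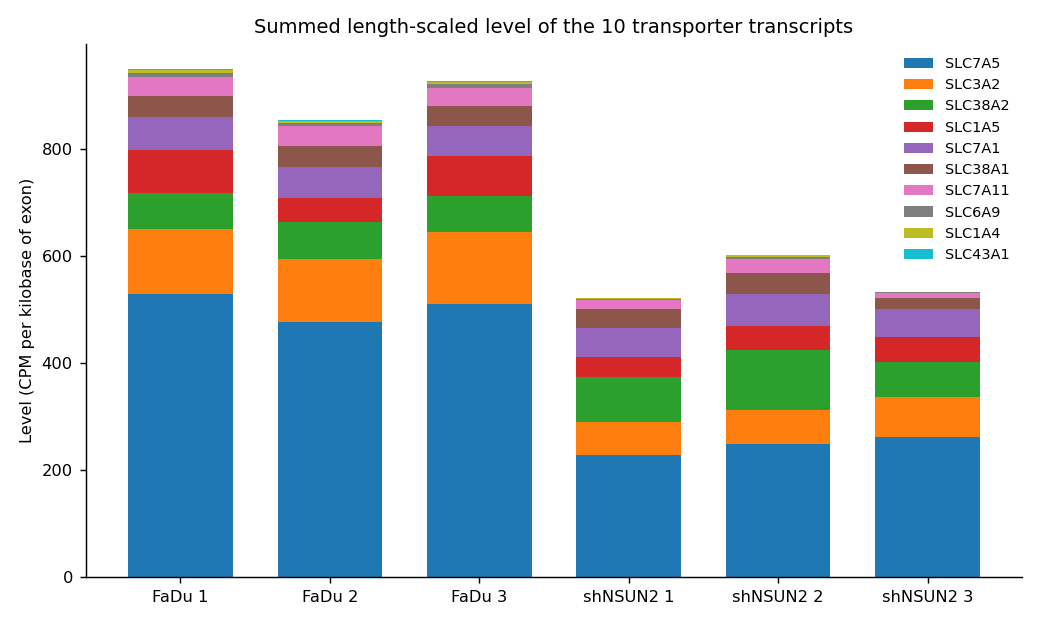
Stacked levels of the 10 carriers in CPM per kilobase of exon (vertical axis, from 0) in each library. The SLC7A5 segment is smaller in each shNSUN2 library, whose totals of 522 to 602 lie below the FaDu totals of 854 to 949.5.

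The shNSUN2 libraries differed more among themselves than the FaDu libraries for these genes. The median coefficient of variation of the 10 was 6.22% in FaDu and 29.1% in shNSUN2. Above 25% were 1 gene in FaDu (SLC1A5) and 6 in shNSUN2. These coefficients were not computed over all genes tested, so the wider spread cannot be called particular to the carriers. Replicate 2 of shNSUN2 was the highest of its group for 7 of the 10 carriers and replicate 3 the lowest for the same 7. Over all genes tested, replicate 2 was highest in 29.1% and replicate 3 lowest in 34.3%. Of the 3 exceptions, SLC7A5, SLC3A2 and SLC1A5, each was highest in replicate 3 and has a GC content of 57.4% to 61.3%. Among the other 7, the GC content ran from 35.4% (SLC7A11) to 59.6% (SLC6A9). The part of GC content in these differences was not tested gene by gene.

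**Figure D4:**
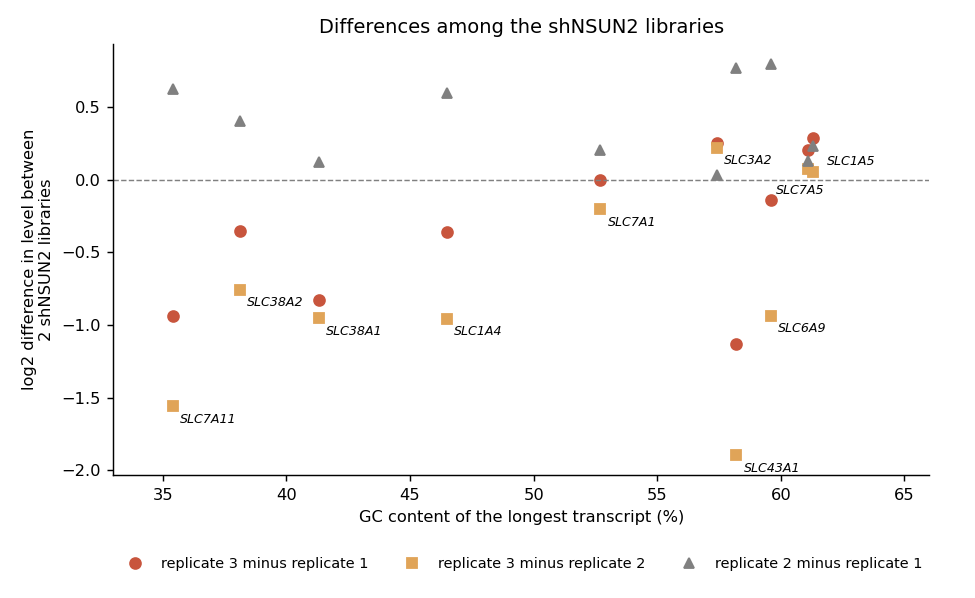
Log2 difference in level between pairs of shNSUN2 libraries (vertical axis) against GC content of the longest transcript in percent (horizontal axis) for each carrier. Replicate 3 is below replicate 2 by 1.56 for SLC7A11 and by 0.94 for SLC6A9, and slightly above it for SLC7A5, SLC3A2 and SLC1A5.

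A list of 34 other amino acid transporters was drawn up for the plasma membrane, but it includes SLC6A17, a carrier of internal membranes. Of these 34, 16 could be tested, 2 fell (SLC6A17 among them) and 2 rose, and the median log2 fold change was -0.41. With so few genes these counts are near the 9.97% and 8.54% called lower and higher over all genes tested. Besides SLC7A8 and SLC7A6, the neuronal-type carrier SLC6A17 fell from 4.30 ± 0.836 to 1.09 ± 0.255 CPM (SD, n = 3; log2 fold change -1.98, SE 0.273, edgeR adjusted p = 0.00346); it is named although it is below the level set for naming genes. SLC1A3, a glutamate and aspartate transporter best known from astrocytes, rose from 3.53 ± 0.259 to 14.5 ± 4.51 CPM. Its log2 fold change of 2.04 (SE 0.254, edgeR adjusted p = 0.00237) was the largest increase among the carriers tested. The abundant SLC6A15, a carrier of branched-chain amino acids, had 80.7 ± 3.62 and 77.3 ± 9.90 CPM and did not pass (95% interval -0.37 to 0.24). The count of rises was 1 without FaDu replicate 1 or 2. Over the whole table those fits called 626 and 478 genes higher, against 1629 in the reported fit.

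**Figure D5:**
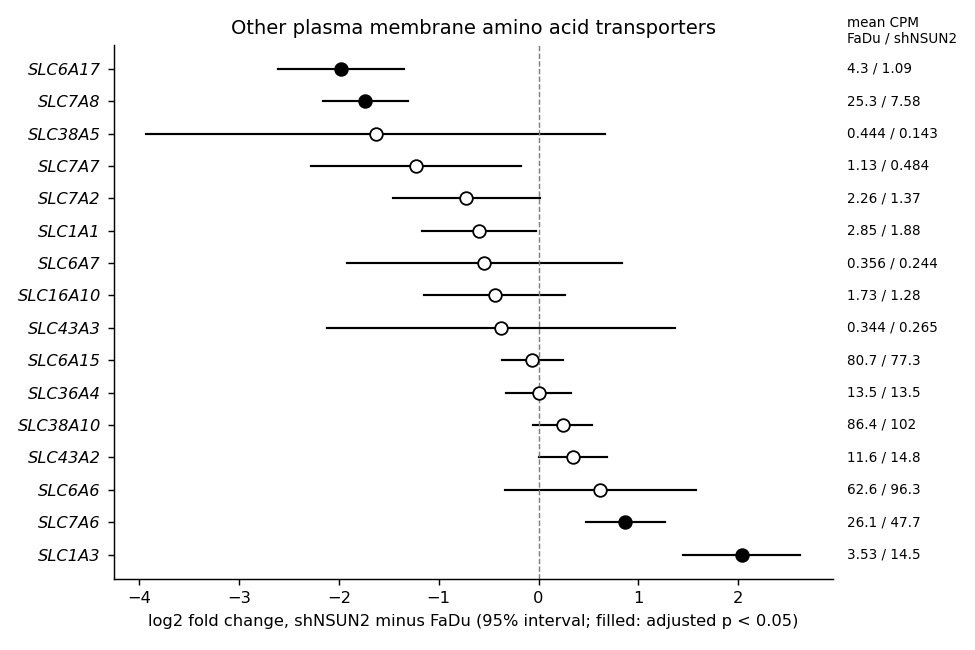
Log2 fold change with 95% interval (horizontal axis) of the 16 tested transporters outside the 10, filled where the adjusted p was under 0.05, with mean CPM in each group at the right. SLC6A17 and SLC7A8 lie below 0, SLC7A6 and SLC1A3 above, and the remaining 12 did not pass.

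Lists of carriers of internal membranes were counted separately. SLC6A17 was counted above, and other genes of that list, such as SLC36A4 and SLC38A10, may also lie on internal membranes. Over all genes tested, 8.54% were called higher and 9.97% lower. Of 9 lysosomal and vesicular transporters tested, a list without SLC6A17, 3 rose, 0 fell, and the median was 0.41 on the log2 scale. They were SLC15A3, a lysosomal histidine and peptide carrier (1.72, SE 0.261), SLC38A7, which exports glutamine from lysosomes (0.77, SE 0.168), and the cystine exporter CTNS (0.69, SE 0.181). Leaving out FaDu replicate 1, 2 or 3 reduced these 3 calls to 2, 1 and 1, leaving out shNSUN2 replicate 1 reduced them to 1, and leaving out shNSUN2 replicate 3 to 2. Without shNSUN2 replicate 2 there were 4. Over the whole table, genes called higher numbered 478 to 626 without 1 FaDu library, against 1629 in the reported fit. Without shNSUN2 replicate 1, 2 or 3 they numbered 886, 1682 and 2090. SLC38A9, the lysosomal arginine sensor, named for its role, was at -0.16 and did not pass. Of 11 mitochondrial carriers tested, 2 rose and 2 fell. With so few genes, these counts are near the shares called over all genes tested. SFXN1, which brings serine into mitochondria, fell from 90.9 ± 3.20 to 39.1 ± 1.43 CPM (SD, n = 3), and SFXN3 fell by 0.61 on the log2 scale. SFXN2 rose from 2.38 ± 0.524 to 6.70 ± 0.792 CPM, and the aspartate-glutamate carrier SLC25A13 rose by 0.77 on the log2 scale (SE 0.125). The 2 decreases were reduced to 1 by leaving out any 1 of the FaDu libraries or shNSUN2 replicate 1, and the 2 increases became 3 without shNSUN2 replicate 3.

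Regulators known to act on these genes were also measured. ATF4 mRNA was at 1391, 1269 and 1202 CPM in FaDu and at 1121.5, 1445 and 1366 CPM in shNSUN2, with overlapping groups and a log2 fold change of 0.03 (95% interval -0.27 to 0.32, edgeR adjusted p = 0.91). ATF4 is known to be controlled largely by translation, which RNA levels do not show. Of 34 genes of the ATF4 pathway, a list that holds none of the 10 carriers, 12 fell and 3 rose, and the median log2 fold change was -0.44. Over all genes tested, 9.97% were called lower and 8.54% higher. ASNS, the asparagine synthetase, had 356, 352 and 369.7 CPM in FaDu and 108, 191 and 110.3 CPM in shNSUN2 (log2 fold change -1.40, SE 0.221, edgeR adjusted p = 0.00592). Its highest shNSUN2 library was replicate 2, as it was for 7 of the 10 carriers, whether they were called or not. INHBE and ALDH1L2 fell by 3.89 and 3.46 on the log2 scale, while ATF5, a stress-responsive relative of ATF4, rose by 2.08 (SE 0.278). Leaving out FaDu replicate 1, 2 or 3 gave 8, 7 and 7 decreases and 2, 1 and 2 increases in this list, and leaving out shNSUN2 replicate 1 gave 8 decreases. Over the whole table those fits called 970, 878, 861 and 1183 genes lower, against 1903 in the reported fit. Without shNSUN2 replicate 2 there were 15 decreases and 3 increases, and without shNSUN2 replicate 3 there were 11 decreases and 4 increases. Genes called lower over the whole table numbered 1838 and 2181 in these fits.

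HIF1A, a hypoxia regulator, fell from 631 ± 25.5 to 374 ± 91.3 CPM (SD, n = 3; log2 fold change -0.76, SE 0.181, edgeR adjusted p = 0.0254), and the squamous regulator TP63 fell from 205 ± 7.71 to 140.3 ± 27.5 CPM (-0.55, SE 0.151, edgeR adjusted p = 0.041). Both calls were lost without any 1 of the FaDu libraries or without shNSUN2 replicate 1. NFE2L2, which encodes NRF2, a regulator of SLC7A11, had 163, 165 and 156 CPM in FaDu and 172, 169 and 31.3 CPM in shNSUN2. Only shNSUN2 replicate 3 was low, and NFE2L2 did not pass (edgeR adjusted p = 0.705). That library was the lowest of its group for 7 of the 10 carriers, and any link of NFE2L2 to SLC7A11 was not tested. MYC ranged from 9.54 to 143 CPM in FaDu and from 7.20 to 128 CPM in shNSUN2, too wide a spread for any comparison (edgeR adjusted p = 0.915). YAP1 and EPAS1 did not pass either, at log2 fold changes of -0.28 and -0.12.

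Among genes outside the 10 with at least 10 CPM on average, the profiles most like SLC7A5 over the 6 libraries were those of HLCS, ADGRG1, GRN, CERCAM and HOMER2, with Pearson r of 0.999, 0.998, 0.998, 0.998 and 0.997 in log2 CPM. As 808 of 9668 genes compared had an r above 0.9, such values are common with 2 separated groups of 3 libraries.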

How the data were processed

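The table holds estimated counts per gene deposited by the authors, in whole numbers, used as they stand. HISAT2 2.0, StringTie 1.3.0 and Bowtie 0.12.2 are named, without roles, in the submitters' processing notes, and so is mm8, a mouse build, although the identifiers are human. For the human build and annotation, nothing is given in the sources used here. Counts of 4 were 3.25 to 3.81 times as frequent as counts of 3 and 5 on average, so low counts carry more error than their size shows. Of the 58825 identifiers, 58472 were in a table of gene names and 58552 in GENCODE 29, which also gave positions on GRCh38 and exonic lengths.

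Testing used edgeR 4.0.16 under R 4.3.3 (TMM, filterByExpr with minimum count 10 and total 15, robust quasi-likelihood fit, group alone) with Benjamini-Hochberg adjustment over 19081 genes, tested on simulated data. The SE is the log2 fold change divided by the square root of F. Composition values used exact permutation of the libraries. Alternatives included DESeq2 1.42.0, other scalings and filters, counts divided by 4, loess offsets for GC content and length, and leaving out each library. Named genes are the 10 carriers, NSUN2, regulators, light chains, overlapping genes and, per list, up to 5 (other carriers) or 4 called genes with the largest change and a mean of 5 CPM or more in either group, plus the 5 genes most like SLC7A5. SLC6A15, SLC6A17, SLC6A6, SLC38A9, GCLC and GCLM were named after their values were seen, and counts per list without single libraries were added after seeing the data. Members and lists were chosen with earlier results of these data known.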

Additional observations from a re-analysis of the deposited data

How the results depend on the processing

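Over 16 alternatives for each carrier, 160 values in all, no log2 fold change reversed. The test's verdict was unchanged in 137, was lost in 8 and was gained in 15. The 8 losses were SLC1A4 and SLC6A9 without any 1 of FaDu replicates 1 to 3 or shNSUN2 replicate 1. Carriers called lower numbered 4 in the reported fit, 7 with DESeq2, 6 with the GC and length correction (SLC7A11 and SLC1A5 gained), and 2 to 6 when 1 library was left out. None was called higher in the reported fit, 1 (SLC38A2) with the GC and length correction, and 0 to 1 when 1 library was left out, where the 1 came without shNSUN2 replicate 3. In the reported fit 7 carriers had an unadjusted p under 0.05. The median log2 fold change of the carriers ranged from -0.98 to -0.78 when 1 library was left out. Genes called over the whole table numbered 3532, 4820 with the GC and length correction and 1354 to 4271 when 1 library was left out. In the list of other plasma membrane carriers, which includes SLC6A17, 1 to 2 were called higher and 2 to 3 lower in those fits. The summed level differed by -358 CPM per kilobase, and by -1797 CPM without division by length. Same-numbered libraries did not deviate together (r = -0.0887, 0.0696 and -0.0349), so the numbers were not taken as pairs. With a replicate block the same 4 carriers and 2370 genes over the whole table were called, at a median of -0.97 for the carriers. For the summed level, the exact sign-flip permutation over the number pairs gave p = 0.25, the smallest it allows. Fits that leave out 1 library assume that the remaining ones of that group vary like the others. Depth limits SLC43A1 most, whose shNSUN2 levels rest on 4 to 94 counts.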

Other observations

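Genes that sense or use the transported amino acids were counted as well. Of 33 genes of amino acid sensing by mTORC1 tested, 4 rose and 2 fell, with a median log2 fold change of 0.18. With so few genes these counts are near the 8.54% and 9.97% called higher and lower over all genes tested. ITFG2 and KPTN, subunits of the KICSTOR complex that holds a repressor of mTORC1 at the lysosome, rose by 1.07 (SE 0.169) and 0.90 (SE 0.217), and DEPDC5, of that repressor, by 0.60 (SE 0.128). SESN1, a sestrin, fell from 10.5, 11.9 and 12.6 CPM to 8.25, 7.34 and 6.01 CPM. Leaving out any 1 of the FaDu libraries gave 1 increase and 0 decreases, and correcting for GC content and length gave 9 increases. Leaving out shNSUN2 replicate 1, 2 or 3 gave 4, 5 and 5 increases and 1 decrease each. Over the whole table, 1629 genes were called higher in the reported fit and 2473 with that correction. Genes called higher numbered 478 to 626 without 1 FaDu library, and 886, 1682 and 2090 without shNSUN2 replicate 1, 2 or 3.

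Of 13 genes of glutathione synthesis and cystine use tested, 1 rose and 2 fell. With so few genes these counts are near the 8.54% and 9.97% called higher and lower over all genes tested. This list shares genes with that of the ATF4 pathway, among them CBS. Glutathione reductase, GSR, had 112, 112 and 177 CPM in FaDu and 274, 205 and 351 CPM in shNSUN2 (log2 fold change 1.05, SE 0.248, edgeR adjusted p = 0.0252). HMOX1 and CBS had log2 fold changes of -0.78 and -0.54. GCLC and GCLM, the subunits of the first enzyme of glutathione synthesis, had log2 intervals (95%) of -0.21 to 0.41 and -0.23 to 0.30 and did not pass. Leaving out FaDu replicate 1 or 2, or shNSUN2 replicate 1, ended every call in this list, the call of GSR was also lost without shNSUN2 replicate 3, and both decreases were lost without FaDu replicate 3. Of 15 enzymes of glutamine and glutamate, 4 fell and 1 rose, where 9.97% and 8.54% of all genes tested were called lower and higher. This list also shares genes with that of the ATF4 pathway, among them ASNS, so the counts are not separate. Besides ASNS, GLS2 and GFPT1 had log2 fold changes of -0.68 and -0.61, and ornithine aminotransferase, OAT, rose by 0.74 (SE 0.102). Those 4 decreases were reduced to 1, 2 and 1 by leaving out FaDu replicate 1, 2 or 3, and to 1 and 2 by leaving out shNSUN2 replicate 1 or 2. Without shNSUN2 replicate 3 there were 5. Over the whole table, 861 to 970 genes were called lower without 1 FaDu library, against 1903 in the reported fit. Without shNSUN2 replicate 1, 2 or 3 the genes called lower numbered 1183, 1838 and 2181.

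FaDu replicate 2, in which SLC1A5 was low, was also low for the taurine transporter SLC6A6, at 25.6 CPM against 76.2 and 86.1 CPM in FaDu replicates 1 and 3 and 92.1, 96.1 and 101 CPM in shNSUN2. MYC had 9.54 CPM in that library against 143 and 91.8 CPM in the others of its group. These genes were picked after their values were seen.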
